A study of Homo sapiens with 6 samples.

Results

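The interleukin-1 system was followed in the tongue carcinoma cell line HSC-3, of human squamous epithelial origin, as 10 of 12151 genes tested: the receptors IL1R1, IL1RAP and IL1R2, the ligands IL1A, IL1B and IL18, the antagonist IL1RN, the processing protease CASP1 and the receptor kinases IRAK1 and IRAK2. Every probe set that the platform annotation gives to 1 of these symbols was taken, which made 26 of 54675 probe sets, and 1 further probe set annotated to both CASP1 and CARD16 was kept apart. The genes were chosen by results of the same comparison, above all the lower signal of the decoy receptor IL1R2 and the higher signal of CASP1. Differences of the 10 genes between the groups are therefore given as a description, with errors and without p-values. The first group was HSC-3 made to overexpress trypsin-2, called TAT-2 in the titles (3 arrays). The second was HSC-3 with a control vector, stated in the labels to lack trypsin-2 (3 arrays). Both were grown for 48 h in medium with serum and hydrocortisone, detached with trypsin and frozen before RNA was taken. The labels do not say whether either line was a clone or a pool, nor which promoter drove the insert.

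Interleukin-1 alpha and beta bind the receptor IL1R1, which then recruits the accessory protein IL1RAP, and the pair signals through MYD88 and the IRAK kinases to NF-kB. IL1R2 binds the same ligands but lacks the intracellular signalling domain, so it acts as a decoy, and IL1RN encodes an antagonist that occupies IL1R1 without signalling. Keratinocytes are a known store of interleukin-1 alpha, and interleukin-1 beta and interleukin-18 are made as precursors that caspase-1 cleaves.

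The deposited values are linear MAS5 signals, 1 per probe set and array, with array medians of 14.7 to 17.5, and the number of arrays limits the precision. The label check went against the labels: the brighter PRSS2 probe set, of the gene that encodes trypsin-2, gave 20.4, 13.8 and 14.6 on replicates 1, 2 and 3 labelled trypsin-2 and 19.6, 80.8 and 83.2 on those labelled vector (exact two-sided permutation p = 0.2). The dimmer one gave 19.9, 17.9 and 19.5 on arrays labelled trypsin-2, against 22.6, 37.99 and 54.5 on those labelled vector (exact permutation p = 0.1, the smallest that 3 arrays against 3 allow). On replicate 1 the brighter probe set gave like signals under both labels. Both PRSS2 probe sets end in _x_at, so they can also read related sequences. No source used here says whether these probe sets read the introduced sequence, so every direction below rests on the labels. Both replicate 1 arrays stood apart on the first principal component, which held 45.6% of the variance, and the sample descriptions of replicate 1 also lack the running number that those of replicates 2 and 3 carry. Squamous markers were present: 5 of 8 listed genes had a probe set with a single symbol, all 5 above the filter, and their summed signal was 21500 to 24549 on arrays labelled trypsin-2 and 18416 to 26114 on those labelled vector. Of 7 leukocyte markers measured 3 passed the filter, with sums of 88.6 to 131 labelled trypsin-2 and 81.6 to 121 labelled vector. CD14, which passed, averaged 49.3 ± 33.1 (SD, n = 3) on arrays labelled trypsin-2 and 23.3 ± 14.6 on those labelled vector. ITGAM, which also passed, averaged 13.5 and, labelled vector, 18.7, and CSF1R, the third, 20.2 and, labelled vector, 20.6. PTPRC, which defines leukocytes, did not pass and lay at 2.86 to 8.17 and, labelled vector, 0.980 to 4.95. Of 6 fibroblast markers 2 passed, with sums of 131 to 137 labelled trypsin-2 and 112 to 136 labelled vector, and of 4 endothelial markers 1 passed, with sums of 41.6 to 55.8 labelled trypsin-2 and 41.2 to 49.4 labelled vector. Their part in the results was not tested.

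Signals were compared as log2(signal + 16), on which scale all differences below are given, trypsin-2 minus vector. Of the 26 probe sets, 21 reached the filter, the median of all probe set means (a signal of 15.2), and each of the 10 genes had at least 1 of them. The 5 below it belonged to IL1R1, IL1RN and IRAK2. With limma, which fits each probe set and moderates its variance toward that of probe sets of like intensity, 1 of the 10 genes (IL1R2) was called at an adjusted p under 0.05, where 0.329% of 12151 genes were. With the replicate number as a block, 3 of the 10 (IL1R2, IL1RAP and CASP1) were called, where 8.40% of genes were. Of the 21 probe sets 2 were called without the block and 5 with it, against 0.0293% and 5.21% of 27307 probe sets. The groups did not overlap in 6 of the 21, 4 lower and 2 higher, and in 14.1% of all tested probe sets. By gene this was 3 of 10, against 15.7% of all genes. Nothing is read from these shares, since the choice of genes drew on the same comparison.

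**Figure D1:**
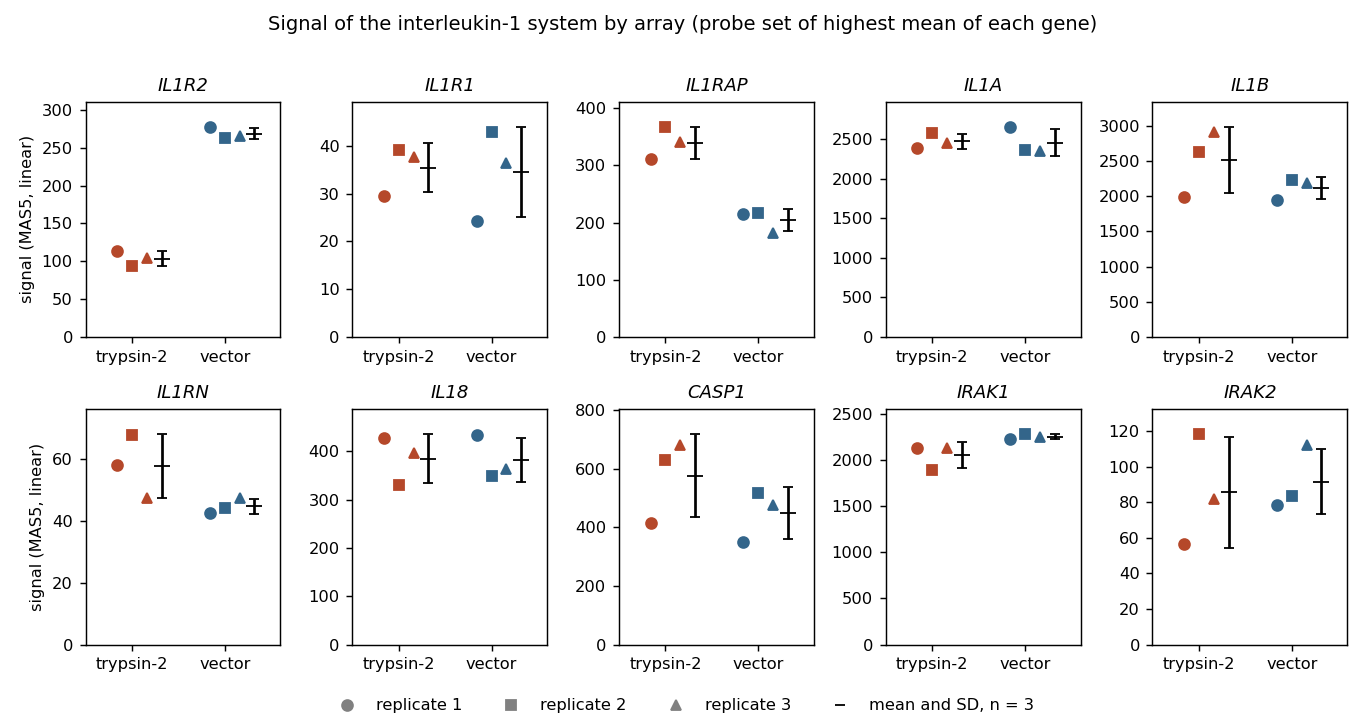
MAS5 signal (linear, from 0) of the brightest probe set of each of the 10 genes on the 3 arrays labelled trypsin-2 (left in each panel) and the 3 labelled vector (right), with mean and SD. IL1R2 sits at 93.4 to 113 on the arrays labelled trypsin-2 and 263 to 278 on those labelled vector, IL1RAP at 311 to 367 and 182 to 217, while the other genes overlap between the groups or, for IRAK1, lie close together.

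IL1R2, the decoy receptor, was lower on both of its probe sets. The brighter one (205403_at) gave 113, 93.4 and 104 on replicates 1, 2 and 3 labelled trypsin-2, against 278, 263 and 266 on those labelled vector. The dimmer one (211372_s_at) gave 49.2, 50.9 and 58.8 on arrays labelled trypsin-2, against 153, 184 and 156 on those labelled vector. In each, the highest array labelled trypsin-2 lay well under the lowest labelled vector. On the brighter probe set the arrays labelled trypsin-2 averaged 103.6 ± 9.84 and those labelled vector 268.9 ± 7.81 (SD, n = 3 each), a log2 difference of -1.26 ± 0.12 (SE). On the dimmer they averaged 53.0 ± 5.11 and, labelled vector, 164 ± 16.9, a log2 difference of -1.39 ± 0.14. By replicate number the brighter differed by -1.19, -1.35 and -1.23 and the dimmer by -1.38, -1.58 and -1.20. Both replicate 1 arrays, which stood apart over the whole array, were like the others here: without them the brighter probe set differed by -1.29. Leaving out 1 array in turn gave -1.31 to -1.19, but without trypsin-2 replicate 2 or 3, or vector replicate 2 or 3, limma called neither IL1R2 nor any of the other tested genes, and the genes with an unadjusted p under 0.05 then numbered 838, 898, 823 and 779. With a pseudocount of 1 in place of 16 the difference was -1.37, and with 64 it was -0.99.

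The letters at the starts of the receptor genes that differed most are shown for reference, as 300 bases each, 250 before and 50 after the annotated start, 5′ to 3′ on the gene's strand, from RefSeq on GRCh38.p14. The set of start windows used here held 8 of the 10 genes, with 2 starts for IL1R2 and 1 for IL1RAP. Capitals mark matches on either strand to the TATA box TATAAA, the AP-1 motif TGANTCA, the NF-kB core GGGNNTTTC or the STAT motif TTCNNNGAA, which do not overlap within these windows. The outer IL1R2 start is chr2:101991710-101992009 (plus strand), the inner one chr2:101998711-101999010 (plus strand) and the IL1RAP start chr3:190513835-190514134 (plus strand).
IL1R2 outer start: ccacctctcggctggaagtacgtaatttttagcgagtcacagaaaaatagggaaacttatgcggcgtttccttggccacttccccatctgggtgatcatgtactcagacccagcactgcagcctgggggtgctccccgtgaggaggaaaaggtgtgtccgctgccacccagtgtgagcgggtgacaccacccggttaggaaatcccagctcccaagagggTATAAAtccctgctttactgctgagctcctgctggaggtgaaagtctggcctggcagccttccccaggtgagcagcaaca
IL1R2 inner start: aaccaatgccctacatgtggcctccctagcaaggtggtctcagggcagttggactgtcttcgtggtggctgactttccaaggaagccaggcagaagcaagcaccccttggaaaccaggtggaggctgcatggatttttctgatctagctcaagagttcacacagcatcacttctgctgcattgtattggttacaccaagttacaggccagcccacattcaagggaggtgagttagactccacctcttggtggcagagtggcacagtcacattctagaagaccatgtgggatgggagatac
IL1RAP: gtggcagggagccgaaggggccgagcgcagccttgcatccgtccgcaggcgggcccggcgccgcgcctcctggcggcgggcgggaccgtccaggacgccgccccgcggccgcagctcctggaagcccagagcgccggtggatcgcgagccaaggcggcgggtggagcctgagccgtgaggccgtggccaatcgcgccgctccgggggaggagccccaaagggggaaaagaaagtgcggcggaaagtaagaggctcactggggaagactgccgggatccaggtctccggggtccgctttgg
The outer IL1R2 window held 1 TATA box, at -30 to -25 from the start, a motif found in 11.5% of 35116 such windows. The other motifs, found in 7.71% (AP-1), 4.78% (NF-kB) and 7.66% (STAT) of windows, had no match in these 3. GC content was 56.3% and 52% in the IL1R2 windows and 73.7% in that of IL1RAP. A match of letters is a description, and an absent one says nothing about a factor.

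IL1R1, the signalling receptor, is the next tested gene to IL1R2 on chromosome 2. Its tested probe set (202948_at) gave 29.5, 39.2 and 37.6 on arrays labelled trypsin-2, against 24.2, 42.9 and 36.5 on those labelled vector. The groups overlapped, with the lowest array of each being replicate 1. The log2 difference was 0.04 ± 0.19 (SE), with a 95% interval of -0.39 to 0.47. A further IL1R1 probe set (215561_s_at) lay below the filter, at 9.29 to 11.5 on arrays labelled trypsin-2 and 0.493 to 14.4 on those labelled vector.

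IL1RAP, the accessory protein shared by the IL-1, IL-33 and IL-36 receptors, had 2 probe sets that went opposite ways. The brighter (205227_at) gave 311, 367 and 341 on arrays labelled trypsin-2, against 214, 217 and 182 on those labelled vector, so it was higher, by 0.69 ± 0.12 (log2, SE), with no overlap. The dimmer (210233_at) gave 38.3, 61.0 and 63.8 on arrays labelled trypsin-2, against 80.1, 89.3 and 88.7 on those labelled vector, so it was lower, by -0.56 ± 0.18, again with no overlap. By replicate number the brighter differed by 0.50, 0.72 and 0.85 and the dimmer by -0.82, -0.45 and -0.39. On each array by itself, the brighter minus the dimmer was 2.59, 2.31 and 2.16 on replicates 1, 2 and 3 labelled trypsin-2, against 1.26, 1.14 and 0.92 on those labelled vector, a mean difference of 1.25 on the log2 scale.

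The annotation ties the brighter IL1RAP probe set to the RefSeq messenger RNA and the dimmer to another accession, and IL1RAP is known to make both a membrane form and a shorter soluble form with a different 3′ end. The sources used here do not say which transcripts each probe set reads, and this was not tested. With the block limma called both probe sets, which held for 3 of 5966 genes with 2 or more tested probe sets (0.0503%). By non-overlapping groups it held for 27 of them, 0.453%. IL1RAP is one of the genes chosen by this comparison, so nothing is read from these calls and shares. Over all 6 arrays, IL1RAP was called by neither probe set without the block. In the block fit with an untrended variance neither was called, and the dimmer also lost its call in the block fits with no filter, with quantile normalization, or without replicate 1 or without replicate 2 of both groups.

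**Figure D2:**
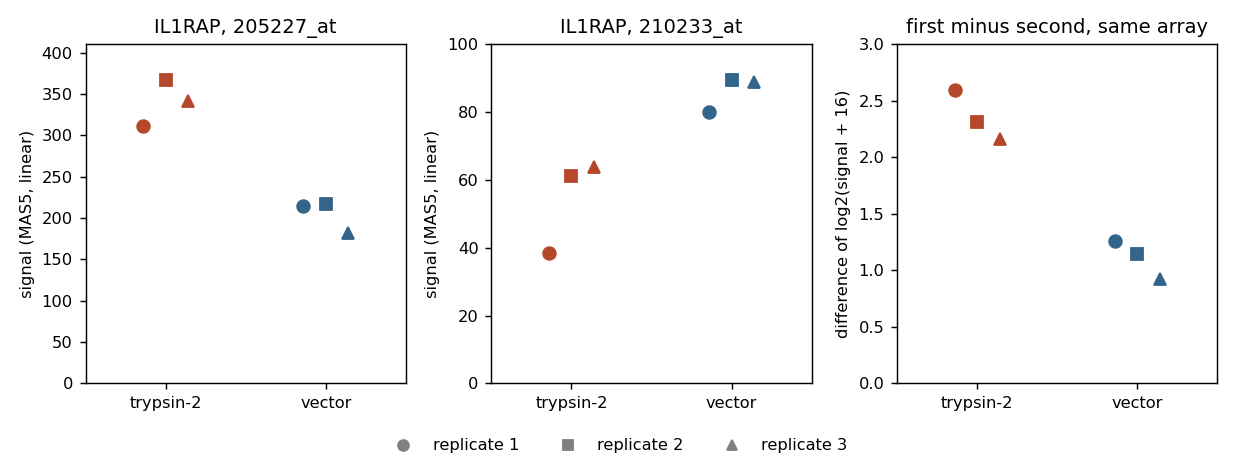
Signal (linear, from 0) of the 2 IL1RAP probe sets, and on the right their difference of log2(signal + 16) on the same array, with the 3 arrays labelled trypsin-2 left of the 3 labelled vector. The first probe set is higher and the second lower on every array labelled trypsin-2, and the difference within an array is 2.16 to 2.59 there and 0.92 to 1.26 on arrays labelled vector.

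The 3 ligands overlapped between the groups. IL1A, interleukin-1 alpha, gave 2393, 2582 and 2460.2 on arrays labelled trypsin-2, against 2661, 2362 and 2359 on those labelled vector, on its brighter probe set (210118_s_at). The groups overlapped, and the log2 difference of 0.01 ± 0.08 (SE) had a 95% interval of -0.18 to 0.20. Its dimmer probe set (208200_at) gave 23.8 to 41.8 on arrays labelled trypsin-2 and 24.4 to 33.8 on those labelled vector, a difference of 0.12 ± 0.19.

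IL1B, interleukin-1 beta, gave 1996, 2635 and 2916 on arrays labelled trypsin-2, against 1946, 2229 and 2182 on those labelled vector (205067_at). Both replicate 1 arrays were the lowest of their group, and replicate 1 labelled trypsin-2 lay below 2 of the 3 arrays labelled vector. The log2 difference was 0.23 ± 0.14 (SE), with 0.04, 0.24 and 0.42 by replicate number, and without replicate 1 of both groups it was 0.33. Single arrays moved it: it was 0.39 without trypsin-2 replicate 1 and 0.12 without trypsin-2 replicate 3. The other probe set (39402_at) differed by 0.18 ± 0.16, with -0.01, 0.19 and 0.36. The block fit called IL1B only after quantile normalization, and nothing is read from this call, since the genes were chosen by this comparison.

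IL18 encodes interleukin-18, a further substrate of caspase-1. Its probe set (206295_at) gave 428, 330.2 and 396 on arrays labelled trypsin-2, against 434, 349 and 364 on those labelled vector. Both groups were highest in replicate 1 and lowest in replicate 2, and the log2 difference was 0.01 ± 0.14 (SE, 95% interval -0.30 to 0.32).

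IL1RN, the receptor antagonist, was read by 3 tested probe sets. The brightest (212657_s_at) gave 58.1, 67.7 and 47.2 on arrays labelled trypsin-2, against 42.4, 44.1 and 47.4 on those labelled vector, a log2 difference of 0.27 ± 0.16 (SE), with overlap in replicate 3, and 0.18 without trypsin-2 replicate 2. The others differed by 0.11 ± 0.14, with no overlap between 31.7 to 34.7 on arrays labelled trypsin-2 and 28.2 to 31.0 on those labelled vector, and by 0.04 ± 0.23. Below the filter, 2 further IL1RN probe sets lay at 1.15 to 8.80 on arrays labelled trypsin-2 and 0.561 to 7.06 on those labelled vector.

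CASP1, the protease that matures interleukin-1 beta and interleukin-18, was higher by replicate number on all 5 of its probe sets. The brightest (209970_x_at) gave 415, 631 and 682 on arrays labelled trypsin-2, against 349, 519 and 478 on those labelled vector. The groups overlapped, because both replicate 1 arrays lay below the rest of their group, while each array labelled trypsin-2 lay above the vector array of its own number, by 0.24, 0.27 and 0.50. The log2 difference was 0.34 ± 0.21 (SE), and 0.34 ± 0.08 with the block. Arrays of equal number are not known to be pairs. The other 4 probe sets differed by 0.19 to 0.30, and the shared one of CASP1 and CARD16 by 0.34 ± 0.22. All 5 were lower on the replicate 1 arrays of both groups than on the other arrays, by -0.63 to -0.37. Probe sets of 1 gene share transcripts, and those ending in _x_at can read related sequences, so the 5 are not separate measurements. With the block, limma called 209970_x_at alone of the 5, and it lost that call with no filter, with an untrended variance, and without replicate 2 or without replicate 3 of both groups. CASP1 was chosen by this comparison, so nothing is read from these calls. Without vector replicate 1 the difference of 209970_x_at was 0.17, without trypsin-2 replicate 3 it was 0.20, and without trypsin-2 replicate 1 it was 0.55.

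IRAK1, a kinase that the receptor complex recruits through MYD88, gave 2134, 1889 and 2130.1 on arrays labelled trypsin-2, against 2231, 2278 and 2251 on those labelled vector (201587_s_at). The groups did not overlap, though the log2 difference was only -0.14 ± 0.08 (SE). Its other probe set (1555784_s_at) did not repeat this, with 175, 84.3 and 82.0 on arrays labelled trypsin-2, against 150.3, 84.2 and 98.9 on those labelled vector, a difference of -0.01 ± 0.29. Both groups were highest in replicate 1 there.

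IRAK2, a related kinase of the same complex, gave 56.4, 118 and 82.1 on arrays labelled trypsin-2, against 78.7, 83.4 and 113 on those labelled vector (231779_at). By replicate number the difference changed sign, with -0.39, 0.43 and -0.39, and averaged -0.11 ± 0.23. The other 2 IRAK2 probe sets lay below the filter, at 0.502 to 18.3 on arrays labelled trypsin-2 and 0.622 to 12.6 on those labelled vector.

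**Figure D3:**
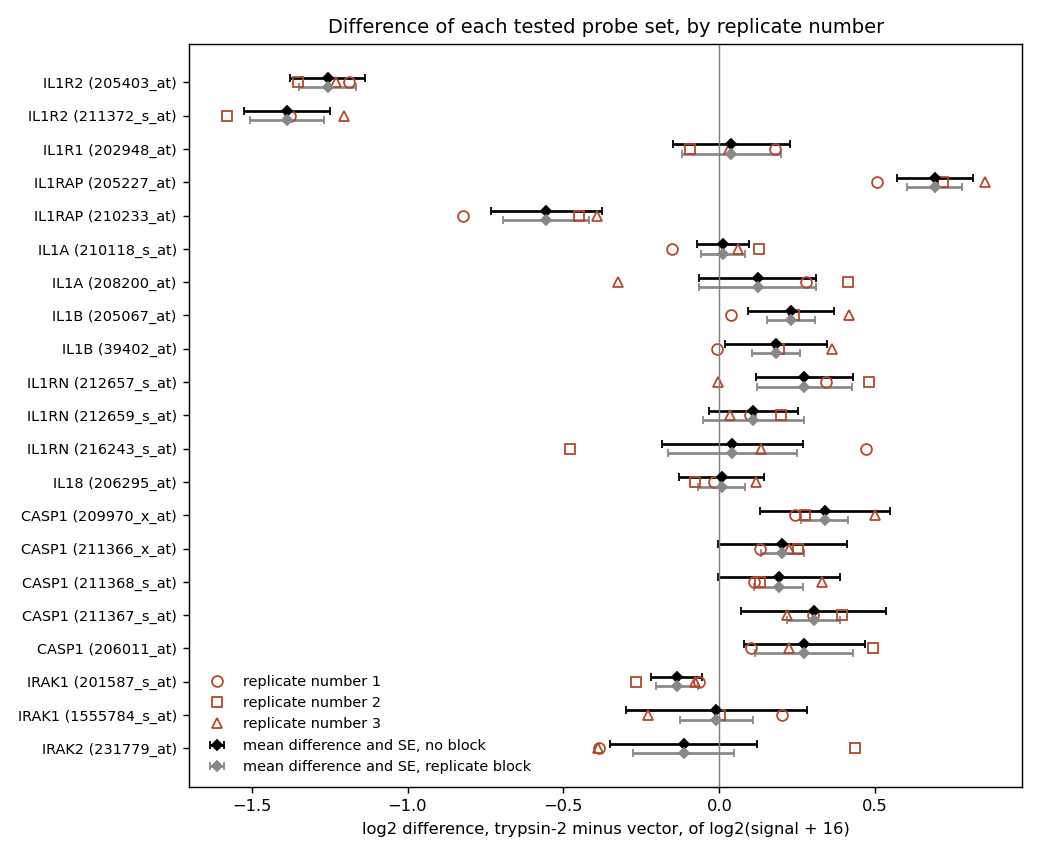
Log2 difference (trypsin-2 minus vector, of log2(signal + 16)) of the 21 tested probe sets of the 10 genes, with open symbols for replicate numbers 1 to 3 and diamonds for the mean with its SE without and with the replicate block. The 2 IL1R2 probe sets lie between -1.58 and -1.19 in each number, the IL1RAP probe sets lie on opposite sides of 0, and the 5 of CASP1 lie to the right of 0.

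Along chromosome 2, IL1R2 lies in a cluster of receptor genes, and its 4 nearest tested genes on each side were read for comparison. LINC01127, the nearest on the near side and a non-coding RNA gene, was at -0.84 ± 0.18 (log2, SE), with no overlap between the groups (adjusted p = 0.129 in limma, and 0.00495 with the block). IL1RL1, which encodes ST2, the receptor of interleukin-33, lies beyond IL1R1 and gave 26.3, 15.7 and 16.2 on arrays labelled trypsin-2, against 56.6, 51.6 and 45.9 on those labelled vector. It was at -0.94 ± 0.17, with no overlap (adjusted p = 0.0797 in limma, and 0.00538 with the block). Its values on arrays labelled trypsin-2 lie near the filter level of 15.2, so its difference depends on the pseudocount (-1.39 at 1 and -0.47 at 64). A further IL1RL1 probe set had the higher mean once replicate 1 of both groups was left out. It then stood for the gene at -0.41 and was not called (adjusted p = 0.351 in limma with the block). The probe sets of IL1RL1 averaged -0.42. Between and beside them, IL1R1 (0.04), IL18R1, a receptor chain of interleukin-18 (-0.01 ± 0.21), MAP4K4 (-0.16 ± 0.12) and SLC9A2 (-0.21 ± 0.17) overlapped between the groups, as did SNORD89 (-0.09 ± 0.18) and RNF149 (0.13 ± 0.12). In the order of tested genes IL1R1, whose groups overlapped, lies between IL1R2 and IL1RL1. Over all tested genes, 15.7% had groups that did not overlap. Whether the lower signals of LINC01127, IL1R2 and IL1RL1 share a cause was not tested.

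The RefSeq windows of IL1RL1, shown because it was lower beside IL1R2, are chr2:102311313-102311612 (plus strand) at the outer start and chr2:102337007-102337306 (plus strand) at the inner, with capitals as above.
IL1RL1 outer start: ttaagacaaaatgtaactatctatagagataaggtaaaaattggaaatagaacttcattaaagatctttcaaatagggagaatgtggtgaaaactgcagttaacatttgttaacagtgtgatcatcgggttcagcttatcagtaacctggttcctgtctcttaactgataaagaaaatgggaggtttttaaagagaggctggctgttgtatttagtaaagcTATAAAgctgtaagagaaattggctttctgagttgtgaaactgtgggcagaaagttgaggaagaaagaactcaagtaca
IL1RL1 inner start: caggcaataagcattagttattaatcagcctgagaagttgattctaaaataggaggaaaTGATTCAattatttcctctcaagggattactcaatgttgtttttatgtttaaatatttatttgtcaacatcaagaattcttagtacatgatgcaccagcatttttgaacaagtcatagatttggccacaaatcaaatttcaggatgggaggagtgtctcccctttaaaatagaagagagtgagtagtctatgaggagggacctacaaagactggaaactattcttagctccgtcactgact
The outer IL1RL1 window held 1 TATA box at -29 to -24 from the start, and the inner held 1 AP-1 motif at -191 to -185. GC content was 35% and 35.7%.

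CASP1 lies on chromosome 11 between CASP4 and CARD16 in the order of tested genes. Farther off on the CASP4 side, the collagenase gene MMP13 (-1.07 ± 0.25, log2 and SE) and DCUN1D5 (-1.04 ± 0.10) had signals with no overlap, both lower. Their adjusted p in limma was 0.152 and 0.0125, and 0.0098 and 3.1e-05 with the block. MMP13 averaged 7.23 on arrays labelled trypsin-2, under the filter level, and 34.6 on those labelled vector, so its size depends on the pseudocount. DYNC2H1 (0.11 ± 0.17) and CASP4, an inflammatory caspase (-0.16 ± 0.17), lie between them and CASP1 and overlapped between the groups. CARD16, which encodes a caspase-1 inhibitor with a related domain, was at 0.32 ± 0.31, and MSANTD4, KBTBD3 and AASDHPPT were at 0.04 ± 0.12, 0.27 ± 0.19 and -0.03 ± 0.12.

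**Figure D4:**
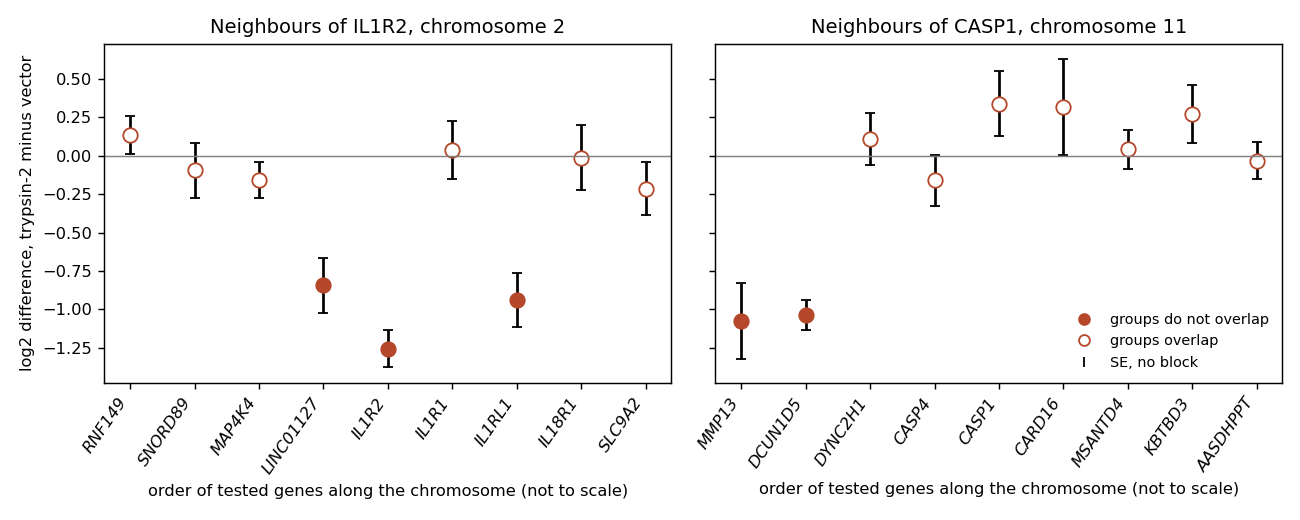
Log2 difference (trypsin-2 minus vector) with its SE of the 4 nearest tested genes on each side of IL1R2 (left) and CASP1 (right), in chromosome order and not to scale, with filled points where the groups do not overlap. LINC01127, IL1R2 and IL1RL1 lie at -1.26 to -0.84 with IL1R1 near 0 among them, and CASP1 at 0.34 lies beside genes that overlap between the groups.

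The genes whose signals ran most like those of IL1R2 over the 6 arrays were found by the root mean square difference between centred log2 values. They were ANO1, a chloride channel (0.09), CST6, a cysteine protease inhibitor (0.12), KLHL4 (0.14), TENM3, a teneurin (0.15), and NRG1, an ERBB ligand (0.15). ANO1 gave 65.0, 46.0 and 56.6 on arrays labelled trypsin-2, against 155, 126 and 146 on those labelled vector. Their log2 differences were -1.14, -1.08, -1.10, -1.34 and -1.16. Since they were picked for likeness to IL1R2 over the same 6 arrays, differences near its own follow from the choice. On arrays labelled trypsin-2, TENM3 was under that filter, at 1.03 to 9.32, so its size depends on the pseudocount.

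Other genes of the pathway were read in 5 lists, by adjusted p over 12151 genes in limma, where 0.132% of genes were called higher and 0.198% lower without the block, and 4.34% and 4.07% with it. Without the block, 9.38% of all genes had an unadjusted p under 0.05. The median log2 difference of all tested genes was -0.002. Of 8 further ligands and binding proteins of the family 3 were tested and none was called by limma in either fit, and 0 had an unadjusted p under 0.05. IL1F10, a ligand of the family, was at 0.40 ± 0.22 (SE) and IL37, an inhibitory ligand, at -0.07 ± 0.27. IL36A, IL36B, IL36G, IL36RN and IL33 lay below the filter, each with a mean of at most 13.1.

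Of 7 further receptors 5 were tested, and limma called IL1RL1 lower with the block and none without it. The list median was -0.01, and 2 had an unadjusted p under 0.05. With the block, IL1RL1 was not called with an untrended variance (adjusted p = 0.0532) nor, by its other probe set, without replicate 1 of both groups. Of 21 signalling proteins 16 were tested, with a list median of 0.09 (0.029 to 0.15 with 1 array left out, lowest without trypsin-2 replicate 1). CHUK, a kinase that releases NF-kB, was higher by 0.33 (log2) in either fit. Limma called it with the block (SE 0.08, adjusted p = 0.0270) and not without it (SE 0.13, adjusted p = 0.481). Its signals were 259, 312 and 344 on arrays labelled trypsin-2, against 218, 244 and 251 on those labelled vector. Without the block limma called none of the 16, of which 3 had an unadjusted p under 0.05, beside 9.38% of all genes.

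Of 26 genes of cytokine processing, release and receptor shedding 21 were tested, with a list median of 0.04. BACE2, one of the proteases known to cleave IL1R2 from the cell surface, was at -0.44 (log2) in either fit. Limma called it with the block (SE 0.09, adjusted p = 0.0149) and not without it (SE 0.21, adjusted p = 0.574). Its signals were 123, 155 and 186 on arrays labelled trypsin-2, against 155, 245 and 255 on those labelled vector, and the groups overlapped. Each array labelled trypsin-2 lay below the vector array of its own number, though arrays of equal number are not known to be pairs. Without the block limma called none of the 21, of which 0 had an unadjusted p under 0.05.

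Of 36 genes that interleukin-1 is known to induce in many cells 26 were tested, with a list median of 0.20, and 0.18, 0.29 and 0.10 in replicates 1, 2 and 3. The median was 0.10 without trypsin-2 replicate 1. Limma called 8 higher and 2 lower with the block and 1 higher and 2 lower without it, where 10 of the 26 had an unadjusted p under 0.05, beside 9.38% of all genes. Among those called higher with the block, CXCL2, a neutrophil chemokine, differed most (1.08 ± 0.07, log2 and SE with the block). CSF3, the granulocyte growth factor (1.04 ± 0.16), and CXCL1 (0.81 ± 0.08) came next. CXCL1 gave 1785, 1836 and 1826 on arrays labelled trypsin-2, against 1193, 951 and 952 on those labelled vector, and was called without the block too (adjusted p = 0.0287). CXCL2 gave 1285, 3247 and 3499 on arrays labelled trypsin-2, against 684, 1522 and 1464 on those labelled vector, with both replicate 1 arrays far below the rest of their group, and was not called without the block. Its difference was 0.71 without vector replicate 1. CSF3 gave 193, 91.7 and 98.9 on arrays labelled trypsin-2, against 54.2, 48.9 and 49.3 on those labelled vector. Its groups did not overlap, and it was highest in replicate 1. MMP1, the interstitial collagenase, and MMP3, stromelysin, fell in both fits, by 1.40 and 0.96 on the log2 scale (adjusted p = 0.0196 and 0.0410 in limma without the block). MMP1 gave 1468, 2264 and 2108 on arrays labelled trypsin-2, against 4933, 5470.1 and 4855 on those labelled vector, and MMP3 gave 112, 99.2 and 90.3 on arrays labelled trypsin-2, against 233, 215 and 184 on those labelled vector. Neither overlapped between the groups. None of the 26 was called without the block once trypsin-2 replicate 2 or 3 or vector replicate 2 or 3 was left out. When adjusted over all probe sets, MMP1 was the only one of these called without the block. Several of these genes have been seen to differ in these data before, and the list was written with that known. Nothing is therefore read from the counts called.

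**Figure D5:**
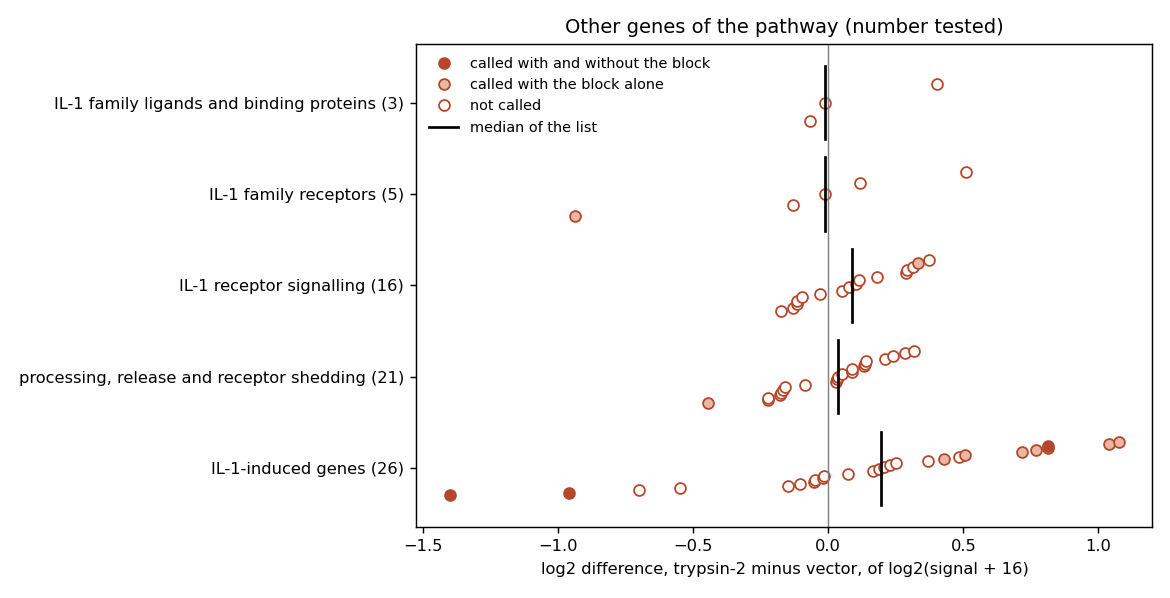
Log2 difference (trypsin-2 minus vector) of each tested gene of 5 lists of the pathway outside the 10 genes, filled where limma called it with and without the replicate block, pale where with the block alone, with the list median as a bar. The medians lie at -0.01, -0.01, 0.09, 0.04 and 0.20, and 10 of the 13 genes called with the block belong to the 26 interleukin-1-induced genes. With the block, 8.40% of all tested genes were called. That list was written with earlier results of these data known, so nothing is read from this count.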

How the data were processed

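RNA of HSC-3 cells was measured on 6 Affymetrix arrays, 3 labelled trypsin-2 and 3 labelled vector, with replicate numbers 1 to 3 from the titles. The labels do not state separate cultures for the replicates, so a p-value here covers the spread between these arrays alone, which may be technical. The deposited values are linear signal intensities, which the submitters' processing notes tie to MAS5. The mean between percentiles 2 and 98 was 99.98 on each array, and this scaling was kept.

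The arrays hold 54675 probe sets, 62 of them controls. By the platform annotation 41097 had 1 symbol, 1801 several and 11777 none, and 41043 were matched by gene identifier to GRCh38.p14. Probe sets whose mean log2(signal + 16) reached the median (4.96) were tested, 27307 in all, with limma 3.58.1 in R 4.3.3 (lmFit, eBayes with an intensity trend). The probe set with the highest mean stood for its gene, with Benjamini-Hochberg adjustment at 0.05 over 12151 genes, or over probe sets for single probe sets. Alternatives were other pseudocounts, filters, normalizations and variance settings, the block, replicate 1 as a batch, and arrays left out. Benjamini-Hochberg calls in the text are limma's.

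After group means were taken off, arrays of equal number correlated at r = 0.64 (number 1), 0.39 (number 2) and 0.25 (number 3). Each was over 0.1, so the numbers were used as a block beside the fit without it. Both replicate 1 arrays stood apart from the rest, which by itself can make these correlations positive. They therefore do not show that arrays numbered 2, or those numbered 3, belong together as pairs.

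The genes and lists were chosen with earlier results of these data known. The rule for named genes took every probe set of the 10 genes, up to 5 called genes of each list by size (or the 2 of smallest p), the 5 genes most like IL1R2, and the 4 nearest tested genes on each side of IL1R2 and CASP1.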

Additional observations from a re-analysis of the deposited data

How the results depend on the processing

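IL1R2 kept its direction under every alternative run, with log2 differences of its brighter probe set from -1.37 to -0.99. The count of called genes among the 10 was 1. With the replicate block it was 3, as with replicate 1 as a batch factor, with the block without replicate 1 of both groups, with the block at pseudocounts of 1 or 64, and with the block adjusted over probe sets. It was 2 with the block and no filter, without replicate 1 of both groups and no block, and with the block without replicate 2 or 3 of both groups, and 4 with the block after quantile normalization. Leaving out 1 array in turn gave 0 to 1, where 0 to 0.396% of all genes were called. The count of called probe sets, 2 without the block, was 5 with the replicate block, the batch factor, the block after quantile normalization, at either pseudocount or adjusted over probe sets, 4 with the block without replicate 1 or 3 of both groups, 0 with the block and no intensity trend, and 0 to 2 with 1 array left out.

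Over all genes limma called 40 without the block, 1021 with it, and 38 with it and no intensity trend. The share called was 7.37% with the batch factor and 2.42% without replicate 1 and no block. With the block it was 5.14%, 4.45% and 8.1% without replicate 1, 2 or 3. With the block, no filter gave 2.58%, quantile normalization 9.6%, and adjustment over probe sets 6.96%. At pseudocounts of 1 and 64 with the block it was 7.56% and 8.77%. Without the block it was 0.0405% with no filter, 0.173% with no intensity trend and 0.0576% adjusted over probe sets. Of the lists, receptors, signalling and processing genes had 0 called without the block. Each had 1 with the replicate block, the batch factor, and the block after quantile normalization, at either pseudocount or adjusted over probe sets. Receptors and processing genes also had 1 with the block and no filter, signalling and processing genes 1 with the block without replicate 1 of both groups, and receptors 1 with the block when replicate 2 was dropped from both groups. With replicate 3 dropped instead, receptors had 2 and processing genes 1. Interleukin-1-induced genes had 3 called, but 10 with the replicate block, with the block at pseudocount 1 or adjusted over probe sets, and without replicate 1 of both groups and no block. They had 9 with the batch factor and with the block without replicate 3, 8 with the block and no filter or without replicate 2, 12 with the block without replicate 1, 11 with the block after quantile normalization or at pseudocount 64, 1 with no filter, with no intensity trend and adjusted over probe sets without the block, and 0 to 4 with 1 array left out. The receptor list's median of -0.01 was 0.19 with a filter at percentile 70. That of the processing list, 0.04, was -0.014 to 0.033 with 1 array left out and -0.049 with the block without replicate 3. IL37, at -0.07 and called in no fit, was at 0.11 without replicate 1 of both groups (with or without the block), at 0.0044 with the block without replicate 3, and from -0.32 to 0.17 with 1 array left out. The causes were not tested, beyond the smaller number of arrays where some were left out. The block fits without replicate 2 or 3, and those at other pseudocounts, after quantile normalization or adjusted over probe sets, were chosen after seeing the data. Levels under the filter hold little information on these arrays.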

Other observations

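Besides IL1RAP, 2 genes had 1 tested probe set called higher and another called lower by limma with the block. They were chosen after their values were seen. KMT5B, a histone methyltransferase, was at 0.71 ± 0.17 (log2, SE) on one probe set and -0.47 ± 0.08 on another, and TBC1D9B at 0.39 ± 0.09 and -0.35 ± 0.09.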
